A study of Arabidopsis thaliana with 16 samples.

Results

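Transcripts of 48 genes that make, trim or destroy the 3-prime ends of messenger RNA were described in pollen tubes of Arabidopsis thaliana, out of 33323 genes counted. The 48 genes were taken from a list of locus identifiers, and all were present in each count table. They comprise 21 genes of 3-prime end processing and 27 genes of mRNA decay. Poly(A) polymerases and cytoplasmic poly(A)-binding proteins are not among them.

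The tubes carried either paps1-1, an allele of the nuclear poly(A) polymerase gene PAPS1, or the wild-type allele (WT), both in ecotype Col-0. paps1-1 is a point mutation that alters the enzyme, so the level of the PAPS1 transcript does not check the labels. It had counts in 15 of the 16 libraries. The tubes grew semi-in vivo, that is, out of the cut end of a pollinated pistil. Each of 8 RNA samples (4 of paps1-1 and 4 of WT) was divided between an oligo(dT) library, in which reverse transcription starts at a poly(A) stretch, and a random-hexamer library, in which it starts anywhere on the RNA. Ribosomal RNA was depleted in both. The title of the series ties this pairing to the length of poly(A) tails. The labels do not say whether replicates were separate plantings or collections, and p-values therefore speak of the spread among these samples alone, part or all of which could be technical.

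As background, a nascent transcript is cut downstream of its poly(A) signal by a complex of CPSF (which reads the signal and cuts), CstF (which binds the downstream element), cleavage factors I and II and the scaffold symplekin. A poly(A) polymerase held by FIP1 then adds the tail, which nuclear poly(A)-binding proteins coat. In the cytoplasm the CCR4-NOT complex shortens the tail, after which the cap is removed and XRN exonucleases degrade the body from the 5-prime end, or the exosome degrades it from the 3-prime end. Nonsense-mediated decay (NMD) and uridylation feed transcripts into these routes.

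Levels are given as CPM, the counts on the gene's strand divided by all gene counts of the library and multiplied by 1000000, and levels of different genes are compared only per kilobase of exon. Gene counts ranged from 70006, in WT oligo(dT) replicate 3, to 5294715, and a count of 0 allows a level of up to 0.567 to 42.9 CPM (3 counts), for counting error only. Markers of the pollen tube took 1.18% to 3.32% of gene counts in paps1-1 and 1.90% to 3.24% in WT random-hexamer libraries, with 10 of 10 markers detected in each. The libraries labelled paps1-1 replicates 2 and 3 stood apart, with pollen-tube shares of 1.39% and 1.18% against 3.32% and 2.72% in paps1-1 replicates 1 and 4 with random hexamers, and 3.10% and 2.16% against 7.59% and 4.16% with oligo(dT). Of 4 sperm-cell, 8 pistil and 8 photosynthesis markers, the sperm gene GEX2 and the pistil gene CRC were at 0 in all 16 libraries. Summed shares with random hexamers were 0.000422% to 0.00577% in paps1-1 and 0 to 0.00448% in WT for sperm, 0.0104% to 0.0470% and 0.00341% to 0.0132% for pistil, and 0.0150% to 0.387% and 0.0152% to 0.125% for photosynthesis. The highest pistil share was in paps1-1 replicate 2 and the highest photosynthesis share in paps1-1 replicate 3. Their part in the results below was not tested.

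Summed over the 48 genes, the share of gene counts with random hexamers was 0.131%, 0.308%, 0.317% and 0.161% for paps1-1 replicates 1 to 4, against 0.113%, 0.198%, 0.134% and 0.201% for WT replicates 1 to 4. The means were 0.229% ± 0.0971 in paps1-1 and 0.161% ± 0.0447 in WT (SD, n = 4 each), and the groups overlapped. The highest values were in paps1-1 replicates 2 and 3, the libraries with the lowest pollen-tube shares. The remaining paps1-1 libraries, at 0.131% and 0.161%, lay inside the WT range. With oligo(dT) the share was 0.0534%, 0.178%, 0.154% and 0.144% in paps1-1, against 0.0455%, 0.0897%, 0.101% and 0.125% in WT. Processing genes took 0.0701% ± 0.0297 in paps1-1 and 0.0541% ± 0.0137 in WT with random hexamers, and decay genes 0.159% ± 0.0674 in paps1-1 and 0.107% ± 0.0335 in WT (SD, n = 4 each). Fewer tubes and less RNA per tube cannot be told apart in such shares. The 95% exact binomial (Clopper-Pearson) interval of the summed share of all 48 genes was widest in WT oligo(dT) replicate 3, at 0.0792% to 0.128% around 0.101%, from 71 counts.

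**Figure D1:**
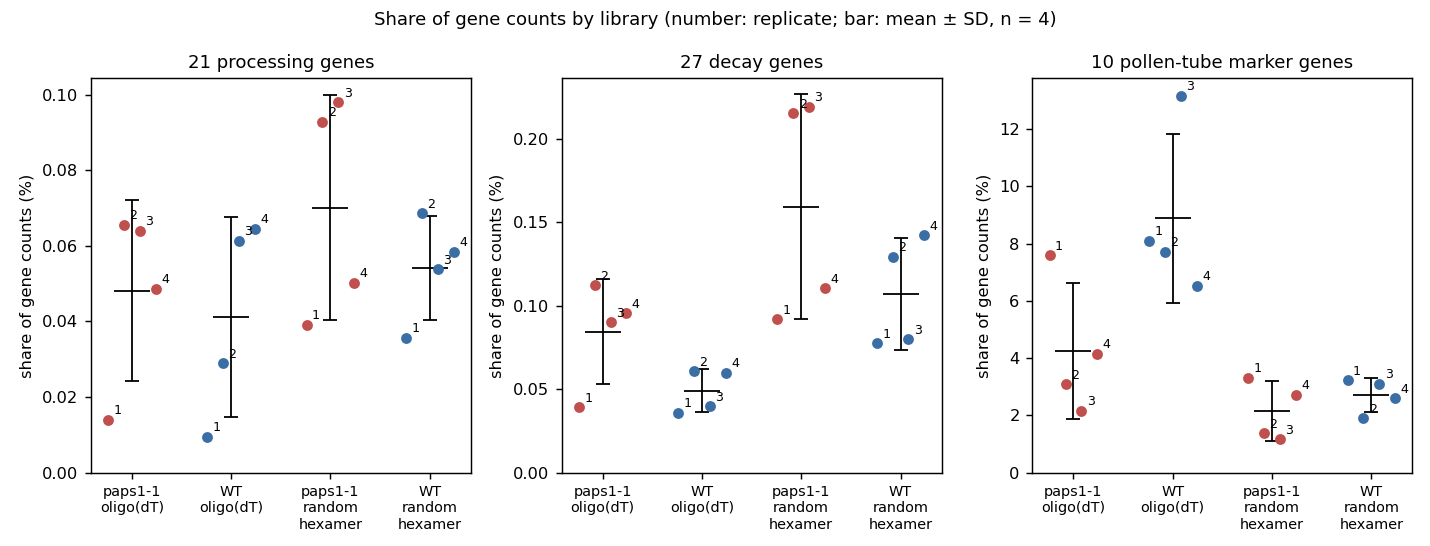
Percent of gene counts (y axis, linear, from 0) taken by the 21 processing genes, the 27 decay genes and 10 pollen-tube markers in each of the 16 libraries. Numbers are replicates and bars are mean ± SD of 4 libraries. paps1-1 replicates 2 and 3 have the highest decay shares and the lowest pollen-tube shares among random-hexamer libraries.

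The transcripts were of middling abundance among the genes tested. Ranked by median CPM per kilobase over the 8 random-hexamer libraries, the 47 members tested there lay at a median percentile of 50.2, from 0.238 to 83.7. The ranking was among 12586 genes that passed the low-count filter, so genes too low to be tested are not in it. In paps1-1 the highest medians were those of DCP5 (46.2 CPM per kilobase), XRN3 (39.4), FIPS5 (39.4), NOT1 (32.9), NOT3 (31.6) and PABN1 (31.4). In WT they were those of XRN3 (25.4), FIPS5 (22.9), UPF1 (20.9), CstF64 (19.97) and PABN1 (19.0). Neighbours in these orders did not differ beyond their spread: DCP5 ran from 16.6 to 72.3 CPM per kilobase in paps1-1 and XRN3 from 33.6 to 45.3. The lowest medians in paps1-1 were those of CLPS3 (3.49), HESO1 (3.5) and PARN (3.65). In WT the median was 0 for CFIS1 and LSM1A and 0.0630 for PARN. The order of the 48 genes was similar in both genotypes, with a Spearman rho of 0.78 between paps1-1 and WT medians per kilobase across the 48 genes, which are not independent replicates.

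**Figure D2:**
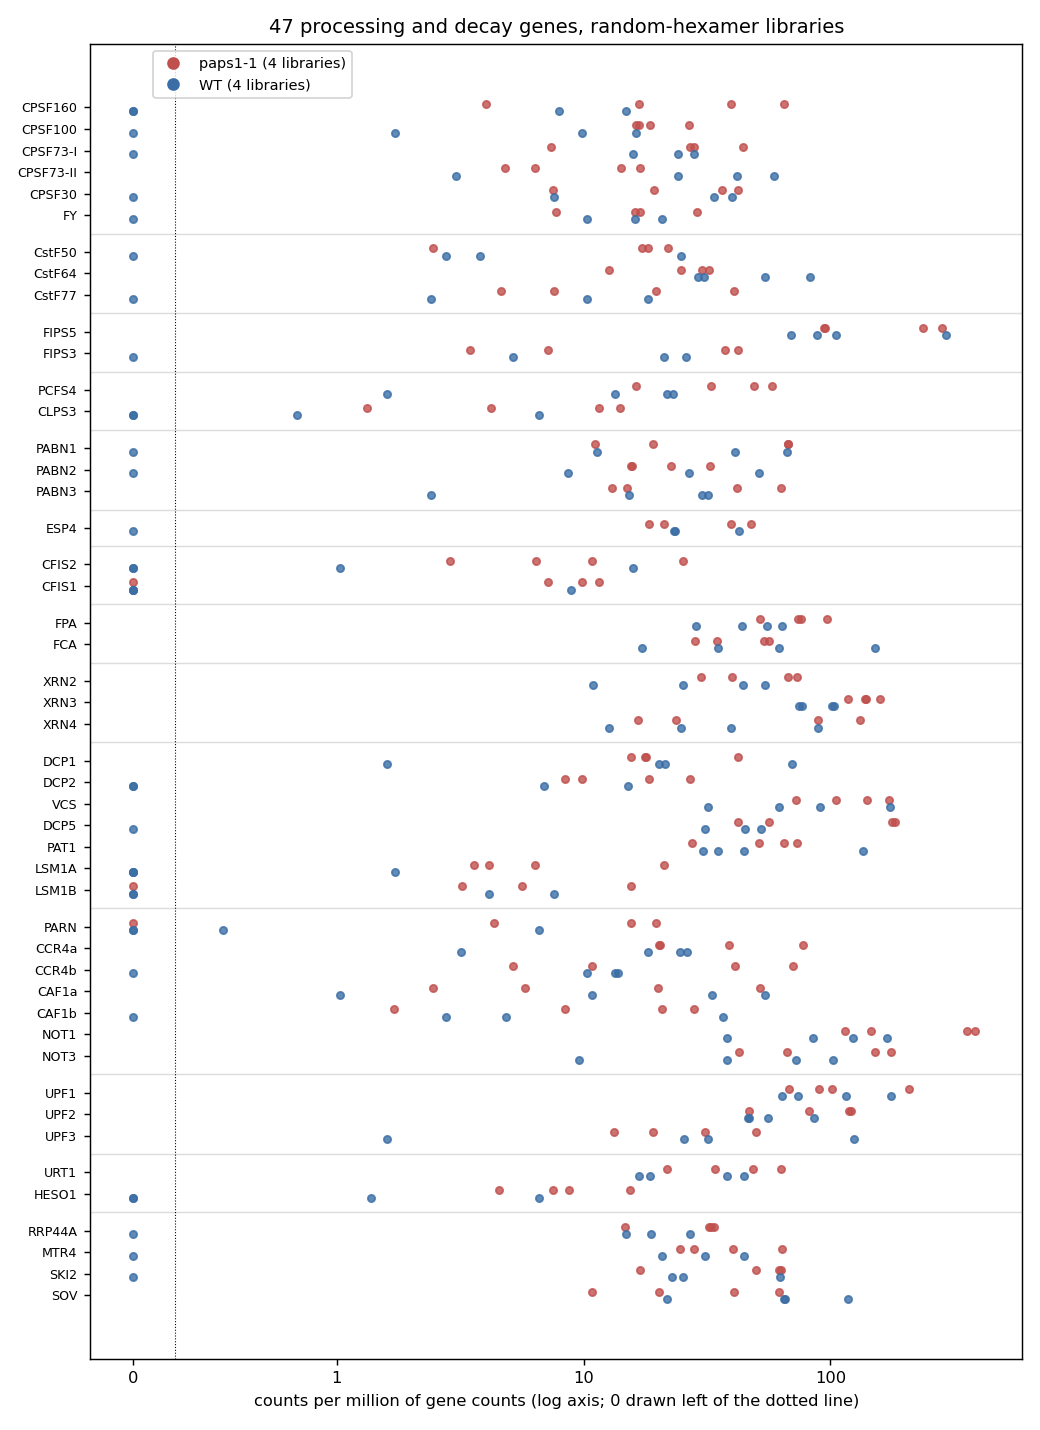
CPM (x axis, logarithmic above the dotted line, with 0 drawn to its left) of 47 of the 48 members in the 4 paps1-1 and 4 WT random-hexamer libraries, each point 1 library, grouped by complex. XRN3 has its 4 paps1-1 values, 118 to 159, above its 4 WT values, 74.8 to 104.

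The first question was whether the transcripts differed between paps1-1 and WT tubes when RNA was primed without selection for a tail. None of the 47 members tested passed the threshold (edgeR quasi-likelihood test, Benjamini-Hochberg adjusted p under 0.05 over 12595 genes), where 0.0715% of genes did. The smallest unadjusted p among members was 0.115 and their smallest adjusted p was 0.9995. None had an unadjusted p under 0.05, a level that 2.33% of all genes reached, and the DESeq2 Wald test called none either (0.294% of genes). Log2 fold changes (paps1-1 over WT) were positive for 36 members and negative for 11, beside 65.7% positive over all genes, and their median was 0.38, as it was over all genes. Without paps1-1 replicates 2 and 3 the signs were 29 positive and 19 negative among 48 tested (60.5% of genes positive), with medians of 0.20 for members and 0.24 for all genes.

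Among the 6 CPSF genes 5 values were positive and 1 negative. CPSF73-I (AT1G61010), the endonuclease that cuts the transcript, stood at 7.37, 44.4, 28.1 and 27.1 CPM in paps1-1, against 15.9, 28.0, 0 and 24.2 CPM in WT replicates 1 to 4, with a log2 fold change of 0.27 ± 1.21 (SE). Its plant paralog CPSF73-II (AT2G01730) stood at 14.2, 4.80, 16.9 and 6.34 CPM in paps1-1, against 24.1, 3.03, 58.9 and 42.0 CPM in WT (-1.55 ± 1.21). The 2 genes lay on opposite sides of 0, but the groups overlapped for both and neither passed the test. CPSF160 (AT5G51660), the largest subunit, stood at 16.8, 64.8, 39.4 and 4.04 CPM in paps1-1, against 7.93, 14.9, 0 and 0 CPM in WT (1.79 ± 1.47). CPSF30 (AT1G30460), a zinc-finger protein that contacts the poly(A) signal, stood at 19.3, 36.3, 42.2 and 7.497 CPM in paps1-1, against 7.59, 33.8, 39.8 and 0 CPM in WT (0.15 ± 1.25). FY (AT5G13480), which reads the signal and is a partner of FCA (AT4G16280), stood at 7.74, 28.8, 16.9 and 16.1 CPM in paps1-1, against 10.3, 16.2, 0 and 20.8 CPM in WT (0.25 ± 1.37). CPSF100 (AT5G23880), related to CPSF73 but without its catalysis, ranged over 16.2 to 26.7 CPM in paps1-1 and 0 to 16.3 CPM in WT.

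CstF64 (AT1G71800), the RNA-binding subunit of CstF, was the CstF gene with a negative value. It stood at 32.1, 30.3, 12.7 and 24.8 CPM in paps1-1, against 30.7, 29.0, 54.1 and 82.5 CPM in WT (-0.89 ± 0.90). CstF50 (AT5G60940) stood at 2.46, 21.9, 18.3 and 17.3 CPM in paps1-1, against 2.76, 3.79, 0 and 24.7 CPM in WT (0.80 ± 1.52), and CstF77 (AT1G17760), the subunit that bridges the other two, ranged over 4.61 to 40.5 CPM in paps1-1 and 0 to 18.3 CPM in WT. The other processing genes overlapped in the same way. FIPS5 (AT5G58040), a FIP1 homolog that tethers poly(A) polymerase, stood at 95.2, 236, 283 and 94.6 CPM in paps1-1, against 87.9, 293, 105 and 69.2 CPM in WT (0.01 ± 0.64). FIPS3 (AT3G66652), the second FIP1 homolog, ranged over 3.46 to 42.2 CPM in paps1-1 and 0 to 26.01 CPM in WT. PABN1 (AT5G51120), a nuclear poly(A)-binding protein, stood at 11.1, 67.2, 67.5 and 19.0 CPM in paps1-1, against 11.4, 40.9, 66.8 and 0 CPM in WT (0.14 ± 1.12). Its paralogs PABN2 (AT5G65260) and PABN3 (AT5G10350) ranged over 15.6 to 32.4 and 13.0 to 63.3 CPM in paps1-1, against 0 to 51.4 and 2.41 to 31.8 CPM in WT. Cleavage factor II genes PCFS4 (AT4G04885), a PCF11 homolog, and CLPS3 (AT3G04680), a CLP1 homolog, ranged over 16.2 to 58.2 and 1.32 to 14.1 CPM in paps1-1, against 1.59 to 23.1 and 0 to 6.57 CPM in WT. The 2 cleavage factor I genes CFIS1 (AT4G29820) and CFIS2 (AT4G25550) were low, at 11.5 CPM or less and 25.3 CPM or less in paps1-1 and at 8.89 CPM or less and 15.9 CPM or less in WT. ESP4 (AT5G01400), the symplekin homolog, ranged over 18.5 to 47.7 CPM in paps1-1 and 0 to 42.5 CPM in WT. FCA, an RNA-binding protein that promotes proximal poly(A) sites, stood at 28.3, 34.8, 56.2 and 53.6 CPM in paps1-1, against 35.2, 17.2, 151 and 61.8 CPM in WT (-0.63 ± 0.80). FPA (AT2G43410), which also acts on poly(A) site choice, ranged over 51.7 to 97.0 CPM in paps1-1 and 28.6 to 63.7 CPM in WT.

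XRN3 (AT1G75660), a nuclear 5-prime to 3-prime exonuclease that degrades the RNA left downstream of the cut, stood at 139, 138, 118 and 159 CPM in paps1-1, against 104, 77.0, 74.8 and 101 CPM in WT. It was the only member tested whose groups did not overlap with random hexamers, higher in paps1-1 as were 4.6% of genes. Its log2 fold change was 0.49 ± 0.63 (edgeR adjusted p = 0.9995), close to the median of all genes, and it was named after its values were seen. LSM1A (AT1G19120), at 4.16, 3.60, 21.1 and 6.34 CPM in paps1-1, against 1.72, 0, 0 and 0 CPM in WT, also did not overlap but was too low to be tested. XRN4 (AT1G54490), the cytoplasmic exonuclease, stood at 16.6, 89.1, 132 and 23.6 CPM in paps1-1, against 24.8, 39.4, 12.7 and 89.4 CPM in WT (0.30 ± 0.84), and XRN2 (AT5G42540) ranged over 30.0 to 73.2 CPM in paps1-1 and 10.9 to 54.1 CPM in WT. Among decapping genes, DCP5 (AT1G26110), which promotes decapping and restrains translation, had the smallest p of the 47 members tested. It stood at 56.5, 177, 183 and 42.1 CPM in paps1-1, against 31.0, 52.3, 0 and 45.0 CPM in WT, with a log2 fold change of 1.40 ± 0.86. Its 2 highest values were in paps1-1 replicates 2 and 3, and its paps1-1 replicate 4 lay below WT replicates 2 and 4. DCP2 (AT5G13570), the decapping enzyme itself, stood at 9.82, 27.01, 8.44 and 18.5 CPM in paps1-1, against 6.90, 15.2, 0 and 0 CPM in WT (1.09 ± 1.57). DCP1 (AT1G08370), its activator, stood at 15.5, 17.7, 42.2 and 17.9 CPM in paps1-1, against 21.4, 69.7, 1.59 and 20.3 CPM in WT (-0.60 ± 1.10). The scaffold VCS (AT3G13300) and the activator PAT1 (AT1G79090) ranged over 72.7 to 173 and 27.6 to 73.1 CPM in paps1-1, against 31.8 to 174 and 30.3 to 135 CPM in WT. LSM1B (AT3G14080), of the ring that binds shortened tails, ranged over 0 to 15.6 CPM in paps1-1 and 0 to 7.58 CPM in WT.

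Of 7 deadenylation genes, 6 had positive values and 1, CAF1a (AT3G44260), a negative one. NOT1 (AT1G02080), the scaffold of CCR4-NOT, stood at 146, 385, 357 and 115 CPM in paps1-1, against 85.2, 170.0, 38.2 and 124 CPM in WT (0.92 ± 0.63). NOT3 (AT5G18230), a subunit of the same complex, stood at 66.7, 151, 176 and 42.7 CPM in paps1-1, against 38.3, 72.7, 9.55 and 103 CPM in WT (0.69 ± 0.73). Both had their highest levels in paps1-1 replicates 2 and 3. PARN (AT1G55870), a poly(A) ribonuclease, was low, at 4.34, 15.6, 19.7 and 0 CPM in paps1-1, against 0.345, 6.57, 0 and 0 CPM in WT (1.91 ± 1.73). Apart from replicate 2, its WT values were at or below the detection limit. The catalytic subunits CCR4a (AT3G58560) and CCR4b (AT3G58580) ranged over 20.2 to 77.4 and 5.19 to 70.3 CPM in paps1-1, against 3.18 to 26.3 and 0 to 13.8 CPM in WT, and CAF1a and CAF1b (AT5G22250) over 2.46 to 52.0 and 1.70 to 28.1 CPM in paps1-1, against 1.03 to 54.1 and 0 to 36.6 CPM in WT. CCR4a and CCR4b are paralogs with neighbouring locus numbers on chromosome 3, and antisense counts came to 36.1% of sense counts at CCR4b, so its reads are less certain.

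Among the NMD genes, UPF2 had a positive value and UPF1 and UPF3 had negative ones, that of UPF1 turning positive (0.027) under DESeq2 size factors. The helicase UPF1 (AT5G47010), the core NMD factor, stood at 89.7, 208, 101 and 68.0 CPM in paps1-1, against 73.8, 177, 63.7 and 116 CPM in WT (-0.11 ± 0.64). UPF2 (AT2G39260), which bridges UPF1 and UPF3 (AT1G33980), stood at 46.8, 121, 120 and 81.9 CPM in paps1-1, against 46.9, 56.1, 46.2 and 86.0 CPM in WT (0.41 ± 0.67). UPF3 stood at 13.2, 49.8, 30.9 and 19.0 CPM in paps1-1, against 25.5, 31.8, 1.59 and 125 CPM in WT (-0.88 ± 1.01). The uridylyltransferase URT1 (AT2G45620), which adds uridines to shortened tails, stood at 21.7, 48.6, 63.3 and 34.0 CPM in paps1-1, against 18.6, 44.7, 38.2 and 16.8 CPM in WT (0.24 ± 0.91). HESO1 (AT2G39740), which uridylates small RNAs, stood at 4.53, 8.70, 15.5 and 7.497 CPM in paps1-1, against 1.38, 6.57, 0 and 0 CPM in WT (1.69 ± 1.62), with more antisense counts (757) than sense counts (301) over all libraries. SOV (AT1G77680), also named RRP44B, had the smallest p of the negative values. It stood at 10.8, 61.8, 40.8 and 20.2 CPM in paps1-1, against 21.7, 64.7, 118 and 65.7 CPM in WT (-1.24 ± 0.82). RRP44A (AT2G17510), an exosome nuclease, and the helicases MTR4 (AT1G59760) and SKI2 (AT3G46960) ranged over 14.7 to 33.8, 24.6 to 63.6 and 17 to 63.3 CPM in paps1-1, against 0 to 27.02, 0 to 44.7 and 0 to 62.7 CPM in WT.

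**Figure D3:**
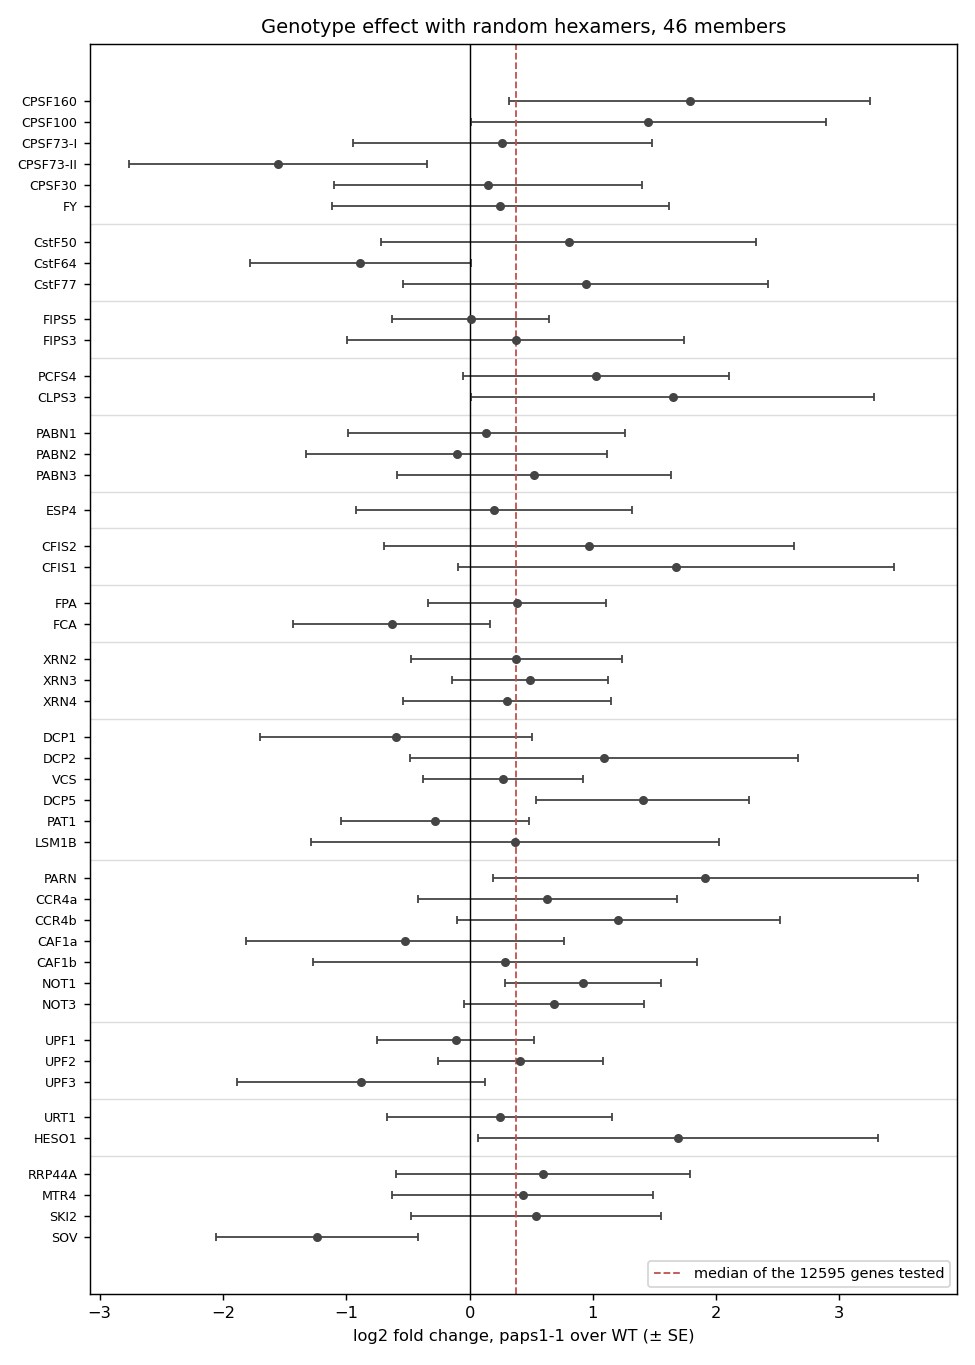
Log2 fold change of paps1-1 over WT (x axis, ± SE) of 46 of the 47 members tested in random-hexamer libraries, by complex. The dashed line is the median of all genes tested, 0.38. No member passed the threshold.

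With oligo(dT) most of the transcripts were too sparse to compare between genotypes. Of the 48, 39, 44, 16 and 21 had at least 1 count in paps1-1 replicates 1 to 4, and 18, 16, 6 and 25 in WT replicates 1 to 4. With random hexamers these numbers were 47, 48, 48 and 46 in paps1-1 and 47, 46, 26 and 37 in WT. The low-count filter left 17 of the 48, and a gene that is high in 1 group alone can pass it, so no count over these 17 supports a direction. None of the 17 passed the threshold (0.0196% of 5101 genes did), and 10 values were positive and 7 negative (63.5% of genes positive). The rank order of the 48 genes was also less alike between replicates. Spearman rho across them had a median over 6 replicate pairs of 0.19 in paps1-1 and 0.13 in WT oligo(dT) libraries, against 0.78 in paps1-1 and 0.64 in WT random-hexamer libraries.

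**Figure D4:**
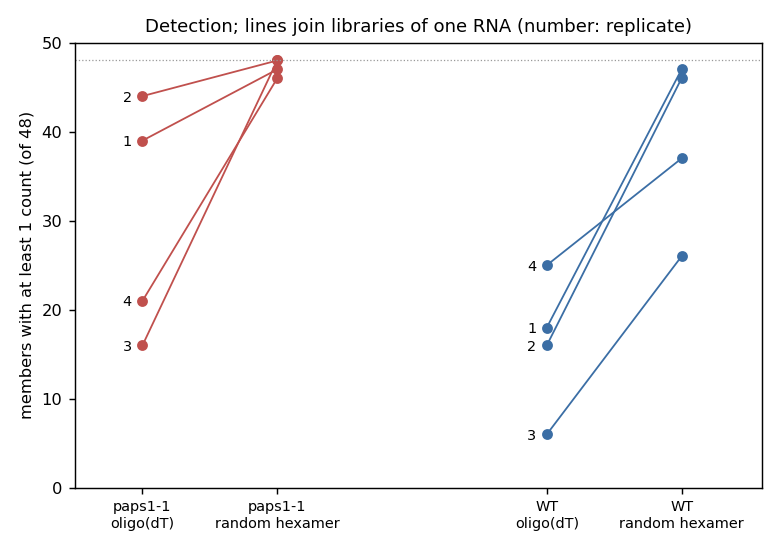
Number of the 48 members with at least 1 count (y axis, from 0) in each library, with lines joining the oligo(dT) and random-hexamer libraries of 1 RNA sample. Every line rises toward the random-hexamer library, most in paps1-1 replicate 3, with 16 members detected with oligo(dT) and 48 with random hexamers.

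NOT3 stood apart among the oligo(dT) values. It had 25.2, 88.1, 146 and 102 CPM in the paps1-1 libraries, against 0, 0, 0 and 1.13 CPM in the WT libraries, that is 631 counts against 1. The groups did not overlap, which held in that direction for 2.41% of genes. The ratio of pooled counts, paps1-1 over WT, was 357 (95% counting interval 63.8 to 14120). The edgeR test gave an unadjusted p of 0.0193, a level below 0.05 that 1.69% of genes reached, and an adjusted p of 0.9999. The DESeq2 Wald test gave an adjusted p of 0.00435, where it called 1.04% of genes. With 1 WT count, NOT3 passed the low-count filter only through the paps1-1 libraries and so had to differ, and neither p is read as support for a difference between genotypes. NOT3 was detected in all 4 WT random-hexamer libraries.

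UPF2 stood at 41.1, 113, 0 and 150 CPM in paps1-1 oligo(dT) libraries, against 0, 0, 0 and 58.6 CPM in WT ones (log2 fold change 2.46 ± 2.46, edgeR adjusted p = 0.9999). PABN1 stood at 14.8, 84.97, 106 and 0 CPM in paps1-1, against 1.70, 1.00, 0 and 66.5 CPM in WT. FCA stood at 11.4, 36.6, 0 and 132 CPM in paps1-1, against 7.47, 0, 0 and 56.4 CPM in WT. URT1 stood at 16.6, 24.3, 0 and 91.5 CPM in paps1-1, against 39.0, 1.00, 0 and 0 CPM in WT. In each of these both genotypes had a library at 0, and the groups overlapped. For UPF2, FCA and URT1 the highest paps1-1 value was in replicate 4. In that oligo(dT) library the ratio of antisense to sense counts was 0.249, and in WT oligo(dT) replicate 3 it was 0.516. In every other library of the series it was 0.118 or less. The part of this ratio in the values was not tested. Negative values of the smallest p were those of CPSF73-II, PABN3, DCP1, FPA and UPF1, with unadjusted p from 0.619 to 0.926. CPSF73-II stood at 12.4, 30.1, 0 and 22.9 CPM in paps1-1, against 0, 0, 214 and 51.9 CPM in WT, where WT replicate 3 holds 70006 gene counts. PABN3 stood at 18.6, 80.3, 0 and 0 CPM in paps1-1, against 0, 78.0, 0 and 84.6 CPM in WT. FPA, with counts in 7 of the 8 oligo(dT) libraries, stood at 6.90, 26.3, 149 and 42.2 CPM in paps1-1, against 13.9, 131, 0 and 66.5 CPM in WT. UPF1 stood at 8.28, 30.1, 0 and 29.9 CPM in paps1-1, against 12.9, 56.0, 0 and 13.5 CPM in WT.

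The CstF genes were not among those tested with oligo(dT), but showed a regular pattern of zeros. None of the 3 had a count in any WT oligo(dT) library. In paps1-1 oligo(dT) libraries CstF50 stood at 9.67, 86.8, 152 and 0 CPM, CstF64 at 13.8, 57.1, 0 and 0 CPM, and CstF77 at 5.52, 15.6, 138 and 0 CPM. Against the level that 3 counts per WT library allow (12.6 CPM on average, raised by the shallow WT replicate 3), CstF50 was at least 4.94-fold, CstF64 at least 1.41-fold and CstF77 at least 3.16-fold higher in paps1-1. These bounds cover counting error only, and 1 library moved each of them. With WT at 0 throughout, each could only point higher in paps1-1. The groups overlapped for all 3 genes, since paps1-1 replicate 4 was also at 0. No difference between genotypes is read from the bounds. Without paps1-1 replicate 3 the bound of CstF50 was 2.56-fold and CstF77 had none, and without paps1-1 replicate 2 CstF64 had none. Leaving out WT replicate 3 raised them to 25.2-fold, 7.18-fold and 16.1-fold for CstF50, CstF64 and CstF77. In total, 13 of 48 members (CFIS1, CFIS2, CPSF30, CPSF73-I, CstF50, CstF64, CstF77, DCP5, FIPS3, HESO1, LSM1B, SKI2 and XRN4) had no count in the 4 WT oligo(dT) libraries while present with random hexamers, which held for 27.2% of genes. In paps1-1 this held for none of the 48, where it held for 4.92% of genes. DCP5 was at least 3.23-fold higher in paps1-1, at 20.02, 39.5, 103 and 0 CPM, and SKI2 at least 2.80-fold higher, at 9.67, 2.45, 0 and 128 CPM. Without paps1-1 replicate 3 the bound of DCP5 was 1.58-fold, and without paps1-1 replicate 4 SKI2 had none. Without WT replicate 3 the bounds were 16.5-fold for DCP5 and 14.2-fold for SKI2. The groups overlapped for both, and with WT at 0 these bounds too could only point higher. CPSF73-I had its paps1-1 oligo(dT) counts in replicate 2 alone (45.9 CPM), and DCP2 had 7.94 and 35.7 CPM in paps1-1 replicates 1 and 2 and 44.8 CPM in WT replicate 1.

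The difference between genotypes in the oligo(dT) to random-hexamer ratio, the quantity closest to the aim in the title, was tested as an interaction over all 16 libraries with each RNA sample as a block. None of the 48 members passed the threshold, nor did any of 14190 genes with edgeR. Unadjusted p fell under 0.05 for 2 members, NOT3 (0.0120) and DCP5 (0.0480), as it did for 1.63% of genes, and their adjusted p was 1.00. The DESeq2 Wald test called 0.275% of genes and no member. Values were positive, that is a higher ratio in paps1-1, for 32 members and negative for 16 (62.9% of genes positive). With the DESeq2 Wald test the direction over all genes turned, with 42.4% of genes positive and a median of -0.36 in place of 0.97, and the members stood at 26 positive and 22 negative. For 13 members a group without a count leaves the value without a meaningful size. Without paps1-1 replicates 2 and 3 no member had an unadjusted p under 0.05. CstF50, UPF2, PARN, LSM1A, FIPS5 and NOT1 followed in order of p within each sign, the last 4 with negative values. PARN had counts with oligo(dT) in 1 paps1-1 library (141 CPM in replicate 4) and in 2 WT libraries (328 CPM in replicate 3 and 24.8 CPM in replicate 4). LSM1A stood at 12.8, 58.0, 0 and 160.0 CPM in paps1-1 oligo(dT) libraries, against 0, 82.0, 0 and 48.5 CPM in WT ones, and its value turned positive in counts without regard to strand. NOT1 stood at 23.1, 152, 58.5 and 0 CPM in paps1-1 oligo(dT) libraries, against 74.7, 45.0, 0 and 128 CPM in WT ones (-1.55 ± 2.41).

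Within each genotype the fitted values of the 48 transcripts were mostly lower with oligo(dT) than with random hexamers in the same RNA. In paps1-1, 45 members had a negative log2 ratio (oligo(dT) over random hexamer) and 3 a positive one, beside 82.7% negative over all genes. Their median was -2.93, against -2.53 over all genes, or -2.32 with genes that lacked counts in 1 group set at their bound. In WT, 44 were negative and 4 positive (83.4% of genes negative), with a median of -5.09 against -3.92 over all genes, or -2.32 against -1.13 with such genes at their bound. These sizes depend on the block: without the RNA sample in the fit the medians were -0.92 for members and -0.67 for all genes in paps1-1, with 38 members negative and 10 positive, and -2.65 and -1.46 in WT, with 40 negative and 8 positive. For some members the fitted sign went against the mean CPM. PARN in paps1-1 had means of 35.2 CPM with oligo(dT) and 9.91 CPM with random hexamers, but a log2 ratio of -5.83. For CLPS3 in WT the same values were 99.99 CPM, 1.81 CPM and -2.31. Each had 3 of these 4 oligo(dT) libraries at 0. By plain CPM, the median member was lower with oligo(dT) in 6 of 8 RNA samples, against 5 for all genes tested. No member passed the threshold in paps1-1 (0.282% of genes did) or in WT (1.15%), the smallest adjusted p being 0.242 for FIPS5 in paps1-1 and 0.0798 for NOT3 in WT. Unadjusted p was under 0.05 for 9 members in paps1-1 (11.1% of genes) and 16 in WT (20.2%). Values with oligo(dT) lay below those with random hexamers without overlap for 9 members in paps1-1 (12.3% of genes) and 7 in WT (8.01%). Leaving out the RNA of the shallow WT replicate 3 brought FIPS5 past the threshold in paps1-1 (edgeR adjusted p = 0.0267) and NOT3 in WT (0.0472), where 1.32% and 1.49% of genes were called. Without the RNA block DCP5 and NOT3 were called in WT, where 1.6% of genes were. The DESeq2 Wald test called 7 members lower in paps1-1 (6.92% of genes in either direction), namely FIPS5, ESP4, XRN4, VCS, PAT1, NOT1 and UPF1. ESP4 was at 0 in 3 of 4 paps1-1 oligo(dT) libraries and at 100 CPM in the remaining one. That value lay above its paps1-1 random-hexamer range of 18.5 to 47.7 CPM. In WT it called 11 lower and 1, LSM1A, higher (12.8% of genes). Those lower in WT included CstF64, XRN2, XRN3, XRN4, VCS, DCP5, PAT1, NOT3, UPF2 and SKI2.

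Over the 8 RNA samples, 6 of 48 members were lower with oligo(dT) in 8 of 8 (6.47% of genes were), and 15 in at least 7 of 8 (18.7% of genes). Only a gene with counts in all 8 random-hexamer libraries can be lower in 8 of 8. Members were detected more often than genes tested in WT random-hexamer replicates 3 (54.2% against 38.6%) and 4 (77.1% against 62.8%). The part of detection in these counts was not tested. The 6 were FIPS5, XRN3, XRN4, VCS, PAT1 and UPF1, of which 5 are decay genes. FIPS5 stood at 2.76, 31.5, 0 and 0 CPM with oligo(dT) in paps1-1 and at 41.8, 0, 0 and 53.0 CPM in WT, where its random-hexamer levels were 69.2 CPM or more in every library. XRN4 had counts with oligo(dT) in paps1-1 replicate 2 alone, at 8.25 CPM, against 16.6 to 132 CPM with random hexamers in paps1-1. In WT it was at least 3.31-fold lower with oligo(dT) than with random hexamers (2.04-fold without WT random-hexamer replicate 4, 16.9-fold without WT oligo(dT) replicate 3). XRN3 stood at 34.2, 20.5, 0 and 33.4 CPM with oligo(dT) in paps1-1 and at 7.13, 45.0, 0 and 0 CPM in WT. VCS stood at 8.97, 34.8, 0 and 0 CPM with oligo(dT) in paps1-1 and at 0, 0, 0 and 62.0 CPM in WT. PAT1 stood at 3.11, 0, 23.7 and 0 CPM with oligo(dT) in paps1-1 and at 1.36, 0, 0 and 0 CPM in WT. CPSF30, with 1 count over the 4 paps1-1 oligo(dT) libraries and none in WT, had a ratio of pooled counts, random hexamer over oligo(dT), of 208 in paps1-1 (95% counting interval 37.0 to 8255). In WT, CstF64 was at least 3.91-fold and DCP5 at least 2.55-fold lower with oligo(dT) (19.9-fold and 13.0-fold without WT oligo(dT) replicate 3), and NOT3 had a pooled ratio, random hexamer over oligo(dT), of 316 (56.5 to 12500). With WT oligo(dT) libraries at 0, the bounds of XRN4, CstF64 and DCP5 could only point lower. In paps1-1 the log2 ratios (oligo(dT) over random hexamer) were -2.80 ± 2.12 for DCP5 and -0.94 ± 1.76 for NOT3.

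Counted by RNA sample, 2 of 48 members were higher with oligo(dT) in at least 5 of 8. DCP1 was higher with oligo(dT) in 7 of 8 RNA samples (2.67% of genes were, in at least 7), with oligo(dT) values of 28.3, 54.4, 149 and 1.76 CPM for paps1-1 and 69.9, 123, 14.3 and 36.1 CPM for WT. With random hexamers it stood between 15.5 and 42.2 CPM in paps1-1 and between 1.59 and 69.7 CPM in WT, and the exception was paps1-1 replicate 4. Its log2 ratios were 0.09 ± 2.38 in paps1-1 and 0.57 ± 2.02 in WT (edgeR adjusted p = 0.990 and 0.885). LSM1A was higher with oligo(dT) in 5 of 8 (12% of genes were, in at least 5). CPSF73-II, PABN1, PABN3 and UPF3 were divided equally, 4 RNA samples each way.

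**Figure D5:**
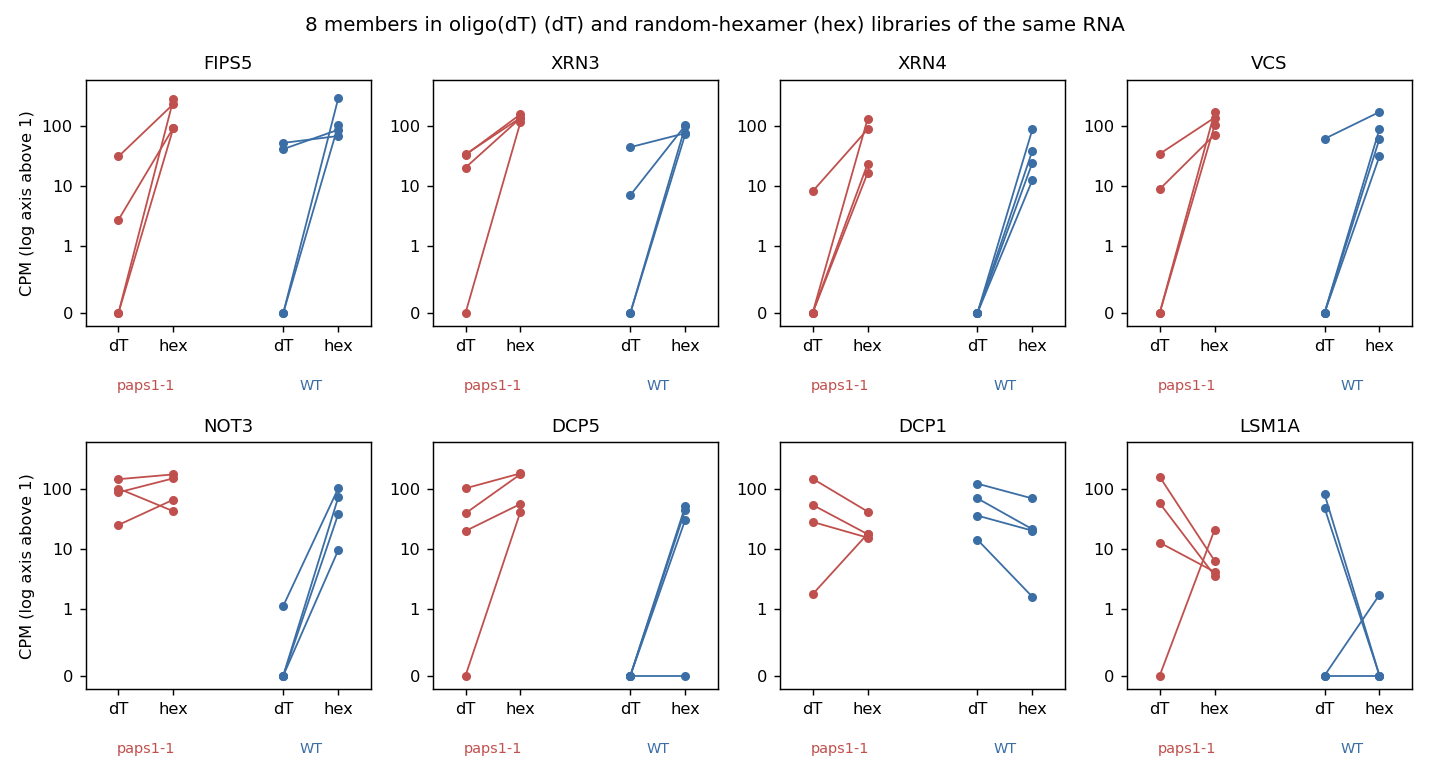
CPM (y axis, logarithmic above 1, linear from 0 to 1) of 8 members in oligo(dT) and random-hexamer libraries, with a line for each of the 4 RNA samples of paps1-1 and of WT. FIPS5, XRN3, XRN4 and VCS are lower with oligo(dT) in 8 of 8, and DCP1 is higher in 7 of 8.

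The members' exons were longer than those of most genes, with a median of 2786 bases against 1898 bases over genes tested. Across the 48 members in paps1-1, longer exons went with a lower oligo(dT) to random-hexamer ratio (Spearman rho -0.33), as they did across 13464 genes (-0.37). In WT, rho was -0.37 across the 35 members with counts in both kinds of library and -0.31 across 10114 genes. The points share libraries and their depth, and the part of length in the priming result was not tested.

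A second list of 48 genes of the same pathways, such as further exosome, deadenylase and cleavage-factor paralogs, was read in the same fits. With random hexamers 32 were tested, none passed the threshold, and 22 values were positive and 10 negative (65.7% of genes positive). The smallest p was that of the exosome core gene RRP42, named after its values were seen. It stood at 4.72, 13.5, 29.5 and 10.4 CPM in paps1-1, against 0 in all 4 WT random-hexamer libraries, so that it passed the filter only through paps1-1. Its bound was at least 7.22-fold higher in paps1-1 (4.74-fold without paps1-1 replicate 3, 13.3-fold without WT replicate 3), with an edgeR unadjusted p of 0.00188 and an adjusted p of 0.704. The groups did not overlap, which held in that direction for 4.6% of genes. With WT at 0, RRP42 could only point higher in paps1-1. No difference between genotypes is read from its bound or its p. With oligo(dT) 15 were tested, none passed, and 10 were positive and 5 negative (63.5% of genes positive). Within paps1-1, 7 of 42 had a positive and 35 a negative oligo(dT) to random-hexamer ratio (82.7% of genes negative), and within WT 13 of 42 were positive and 29 negative (83.4% of genes negative), again with none past the threshold.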

How the data were processed

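Per the submitters' processing notes, reads were aligned with STAR to the TAIR10 genome. The version is not given in the sources used here. The deposited tables hold raw counts per gene, without normalization by the authors, in a column without regard to strand and a column for each strand. Counts on the gene's strand were used. The 4 lines that name no gene (unmapped, multimapping, ambiguous and unassigned reads) took 55.1% to 99.6% of each library and were left out.

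Levels are plain CPM, computed here from the counts. edgeR 4.0.16 (R 4.3.3) quasi-likelihood tests used TMM scaling, filterByExpr (count minimum 10, total minimum 15) and Benjamini-Hochberg adjustment at 0.05 over all genes tested. The 2 genotype comparisons used 8 libraries each. The interaction and both priming comparisons used 1 fit of 16 libraries in which each RNA sample was a block, since the labels' protocol divides each RNA between both primings. The genotype and interaction fits were also run on simulated counts. The spread between simulated libraries was set below the fitted one. The fitted common dispersion was 1.10 with random hexamers, 3.19 with oligo(dT) and 2.34 in the fit of 16 libraries. The simulation therefore does not show what these fits could detect, and no result here rests on it. Standard errors are the absolute log2 fold change over the root of F. Exon lengths came from RefSeq's TAIR10.1 annotation, in which 48 of 48 members were found. As that build differs from the files', no coordinate or sequence was taken.

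The values of 1 member are not reported here, though it is counted with the 48. The members, the second list and the marker lists were chosen with earlier results of these data known. Genes given with values in each library were the 5 of smallest p in each direction in each genotype comparison, the 4 in the interaction, the defining genes of each complex and, chosen after their values were seen, the 3 of smallest p in each priming comparison. XRN3, VCS, PAT1 and the CstF pattern of zeros were also named after their values were seen. Alternatives were DESeq2 size factors, no low-count filter, the DESeq2 1.42.0 Wald test, counts without regard to strand, the fit with or without a block, each replicate left out in turn, and paps1-1 replicates 2 and 3 left out together. No pair of replicates agreed within sampling noise (smallest chi-square per degree of freedom 19.5).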

Additional observations from a re-analysis of the deposited data

Results flagged for a closer look

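Single libraries far from the other 3 of their group were looked for in the CPM of the members given in full, by the gap to the nearest library over the range of the group (above Dixon's 95% critical value for 4 libraries). Of 120 groups examined, 19 were past it, where about 6, or 1 in 20, would be for normally distributed values. CPM with many zeros are not so distributed, so the 6 is a rough guide only. In many of the 19 groups the other 3 libraries were at or near 0, and the values of 1 library are not independent of each other.

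With oligo(dT), paps1-1 replicate 2 stood high for CPSF73-I (45.9 CPM), FIPS5 (31.5 CPM) and XRN4 (8.25 CPM). paps1-1 replicate 4 stood high for CPSF160 (114 CPM) and PARN (141 CPM), and paps1-1 replicate 1 for CPSF30 (0.345 CPM, 1 count). WT replicate 4 stood high for PABN1 (66.5 CPM), FCA (56.4 CPM), UPF2 (58.6 CPM) and NOT3 (1.13 CPM, 1 count). WT replicate 1 stood high for DCP2 (44.8 CPM) and URT1 (39.0 CPM), and the shallow WT replicate 3 for PARN (328 CPM).

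With random hexamers, paps1-1 replicate 3 stood high for DCP1 (42.2 CPM) and LSM1A (21.1 CPM). WT replicate 2 stood high for FIPS5 (293 CPM) and PARN (6.57 CPM), WT replicate 4 for CstF50 (24.7 CPM) and WT replicate 1 for LSM1A (1.72 CPM).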

How the results depend on the processing

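No member passed the threshold in either genotype comparison or the interaction under any alternative with edgeR. With the DESeq2 Wald test the members called were 1 with oligo(dT), 7 for priming in paps1-1 and 12 for priming in WT. Without the RNA block 2 were called for priming in WT (DCP5 and NOT3, beside 227 of all genes), and leaving out 1 RNA sample gave 0 to 1 in each priming comparison (1 without WT replicate 3). Whether the same replicate numbers pair the genotypes was not settled. With random hexamers, deviations of same-numbered libraries correlated at -0.06 to 0.34, and those of other numbers at -0.32 to 0.17. With oligo(dT) the ranges were -0.07 to 0.27 and -0.23 to 0.13. In each priming, 2 of 4 paps1-1 and 3 of 4 WT libraries correlated best with their own number. With random hexamers, edgeR unadjusted p fell under 0.05 for 294 genes without a replicate block and 522 with it. The replicate block changed no call of a member.

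Over all genes, the 9 calls with random hexamers became 47 without the low-count filter, 37 with the Wald test and 15 with the replicate block, and 4 to 11 with 1 library left out (5, 4 and 5 without WT replicates 1, 2 and 3). The split of higher against lower calls, 2 and 7, was 25 and 12 with the Wald test. The 1 call with oligo(dT) became 7 with size factors, 2 without the filter, 53 with the Wald test, 2 without regard to strand, 4 with the replicate block, 0 without paps1-1 replicates 2 and 3, and 0 to 3 with 1 library left out (0 without paps1-1 replicate 2 or 4 or WT replicate 1 or 4, and 3 without WT replicate 3). The split, 0 and 1, was 52 and 1 with the Wald test. The 0 calls of the interaction became 4 with size factors, 39 with the Wald test and 0 to 2 with 1 RNA sample left out. The 40 calls for priming in paps1-1 (4 higher, 36 lower) became 61 with size factors (17 higher, 44 lower), 982 with the Wald test, 16 without the replicate block and 2 without paps1-1 replicates 2 and 3. They ran from 16 to 215 with 1 RNA sample left out (21, 16 and 19 without paps1-1 replicates 2, 3 and 4, and 215 without WT replicate 3). The 163 calls for priming in WT (6 higher, 157 lower) became 105 with size factors (17 higher, 88 lower), 87 without the filter, 1821 with the Wald test and 52 without paps1-1 replicates 2 and 3. They ran from 32 to 242 with 1 RNA sample left out (102 and 76 without paps1-1 replicates 1 and 2, and 67, 32 and 41 without WT replicates 1, 2 and 4). The cause of these changes was not tested.

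Size factors moved the median log2 value of all genes to 0.53 with random hexamers, 0.81 with oligo(dT), 0.66 for the interaction, -2.08 for priming in paps1-1 and -3.16 for priming in WT. Other settings moved it further: 0.89 with random hexamers and 1.02 with oligo(dT) under the replicate block, 1.47 with oligo(dT) without the filter, -0.36 for the interaction with the Wald test, and -0.67 and -1.46 for priming in paps1-1 and WT without the block. The log2 value changed sign for some named members that were within their error of 0. With random hexamers and without paps1-1 replicates 2 and 3 it was -0.21 for CPSF30, -0.69 for PABN1 and -0.74 for XRN4, and for UPF1 it was 0.027 with size factors and 0.027 with the Wald test. With oligo(dT) it was -0.62 for PABN1 without those replicates, 2.23 for CPSF73-II and 0.16 for PABN3 with the replicate block, 0.56 (size factors) and 0.54 (Wald test) for DCP1, and 0.67, 0.65 and 0.47 for FPA with size factors, the Wald test and counts without regard to strand. The interaction of LSM1A was 1.24 without regard to strand. With 1 library left out, values with random hexamers ran from -0.16 to 0.86 for CPSF73-I, -0.28 to 0.83 for CPSF30, -0.16 to 0.66 for FY, -0.30 to 0.70 for PABN1, -0.026 to 0.67 for XRN4, -0.35 to 0.46 for UPF1 and -0.027 to 0.78 for URT1. With oligo(dT) they ran from -1.71 to 0.18 for CPSF73-II, -2.06 to 0.22 for PABN3, -0.78 to 0.25 for DCP1, -1.01 to 0.66 for FPA and -0.69 to 0.88 for UPF1. For the interaction they ran from -7.39 to 0.69 for LSM1A and -4.20 to 0.17 for FIPS5. Of the log2 values of single members under alternatives, 539 kept their sign and side of the threshold, 37 changed sign and 10 passed the threshold. With oligo(dT), 41 members were at 0 in at least 2 of 4 WT libraries. WT replicate 1 had 18 members in 2946040 gene counts with oligo(dT) and 47 in 2900532 with random hexamers. The part of depth in detection was not tested. The bounds without each library were added after seeing the data.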
